A study of Homo sapiens with 4 samples.

Results

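The genes that make microRNAs (miRNAs) and carry them to their targets were measured in A2780/SRSF3si2 cells with Doxy and without it. The set was chosen by name and not by any measured value, though earlier results of these data were known. It holds 10 genes, which the array annotation lists as RNASEN (now DROSHA), DGCR8, XPO5, DICER1, TARBP2, PRKRA and EIF2C1 to EIF2C4 (now AGO1 to AGO4). A gene's value is the mean of the log2 signals of the probe sets paired with that gene alone, and 9 of the 10 genes have one, among 16613 genes in all. These 9 genes were read by 267 probe sets, short groups of probes that each cover an exon or a piece of one. AGO4 has no probe set of its own, since every probe set that lists it also lists AGO3.

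miRNA genes are transcribed into long RNAs that hold hairpins. In the nucleus the Microprocessor, made of the nuclease DROSHA and its RNA-binding partner DGCR8, cuts the hairpin out. Exportin-5, the product of XPO5, carries it to the cytoplasm, where the nuclease DICER1, with its partners TARBP2 and PRKRA, trims it to a short duplex. A strand of that duplex is loaded into an Argonaute protein, which pairs it with target mRNAs and, with GW182 proteins, lowers their translation and stability. Small interfering RNAs (siRNAs) enter Argonaute proteins as well, and AGO2 is the human Argonaute best known for cutting a fully paired target.

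A2780 is a human ovarian cancer cell line, and A2780/SRSF3si2 is a subline of it that expresses an siRNA against the splicing factor SRSF3 when Doxy (doxycycline) is added. The No Doxy group holds 2 arrays of cells without Doxy and the Doxy group holds 2 arrays of cells kept in 0.1 μg/ml Doxy for 3 days. RNA was read on the Affymetrix Human Exon 1.0 ST array. All 4 arrays come from 1 subline, and the sources used here do not say whether it is a single clone. No array of cells with a control siRNA was used here, so the effects of Doxy, of siRNA production and of lower SRSF3 cannot be told apart. The labels do not say that the replicates are separate cultures, and if they are not, the spread behind the p-values is technical.

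SRSF3 itself read 8.50 and 8.33 without Doxy and 7.84 and 7.97 with Doxy, a log2 difference of -0.51 (limma adjusted p = 0.129). The difference was -0.67 (adjusted p = 0.0377) once each array was centred on its median. With the median signal of its probe sets in each array as the gene value, it was -0.21 (adjusted p = 0.710). The array medians were 5.20 and 5.04 without Doxy and 5.18 and 5.38 with Doxy, and centring lowers every gene's difference by 0.16. Array values correlated at 0.987 and 0.988 within the groups and at 0.969 to 0.972 between them. The mean of 24 G2/M genes was 6.93 and 7.31 without Doxy and 5.89 and 7.20 with Doxy, so that Doxy replicate 1 stood lowest. Means over markers of other cell types were 3.03 to 3.21 for leukocytes, 3.53 to 3.64 for endothelium and 6.10 to 6.25 for fibroblasts, and the groups overlapped for leukocytes and endothelium. Of 8 fibroblast markers LUM was called higher with Doxy, by 0.79, and none was called lower. Both Doxy arrays lay above both No Doxy arrays for 4 of the 8 and below them for 3, with COL3A1 at -0.65 (adjusted p = 0.0593). The mean over 9 epithelial and ovarian carcinoma markers was 4.75 and 4.66 without Doxy and 5.02 and 4.96 with Doxy. It was below that of the fibroblast markers in every array. Of the 9, 2 were called higher with Doxy, EPCAM by 2.10 and CDH1 by 0.93, and MUC16 had no value. None of the 9 was called lower. Both Doxy arrays lay above for 4 of the 9 and below for 3, with KRT19 at -0.81 (adjusted p = 0.0759). Over all genes 5.66% were called higher, and 30.5% and 21.8% had both Doxy arrays above and below. The part of the G2/M genes and of these markers in the results was not tested.

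None of the 9 miRNA pathway genes passed the test of expression, limma with a Benjamini-Hochberg adjusted p under 0.05 over all genes, which called 7.36% of all genes, 5.66% higher and 1.70% lower with Doxy. AGO1, AGO2 and DICER1, the 3 with the largest differences, were also the 3 with an unadjusted p under 0.05 in the higher direction, where 16.5% of all genes had one. In the lower direction none of the 9 had one, against 6.68% of all genes. For 5 of the 9, DROSHA, DICER1, AGO1, AGO2 and AGO3, both Doxy arrays lay above both No Doxy arrays, which held for 30.5% of all genes. For none of the 9 did both Doxy arrays lie below, against 21.8% of all genes. The difference was above 0 in 9 of 9 genes and in 54.4% of all genes, with a median of 0.37 over the 9 and 0.04 over all genes. The median over the 9 ran from 0.13 without Doxy replicate 2 to 0.60 without Doxy replicate 1. Doxy replicate 2, the array with the highest median, gave the highest value for 9 of 9 genes and for 37.5% of all genes. In RNA from a whole culture, a change in the make-up of the cells and a change in RNA per cell cannot be told apart.

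**Figure D1:**
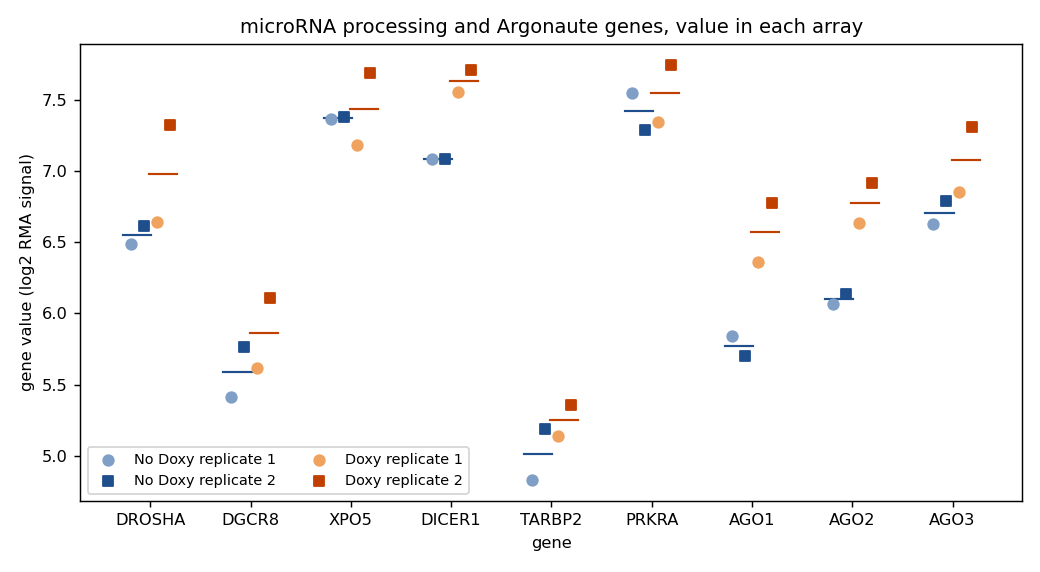
Gene values (log2 signal, mean of the gene's probe sets) of the 9 measured genes in each array, with a point for each array and a short line for each group mean, No Doxy against Doxy. Both Doxy points lie above both No Doxy points for DROSHA, DICER1, AGO1, AGO2 and AGO3, and the groups overlap for DGCR8, XPO5, TARBP2 and PRKRA.

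In the Microprocessor, DROSHA, the RNase III enzyme that makes the first cut, read 6.49 and 6.62 in the No Doxy arrays and 6.64 and 7.32 in the Doxy arrays. The groups did not overlap, but Doxy replicate 1 exceeded No Doxy replicate 2 by little and the difference rested mainly on Doxy replicate 2, without which it was 0.092. Without Doxy replicate 1 it was 0.77. The log2 difference was 0.43 (95% confidence interval -0.13 to 0.99, adjusted p = 0.347). Its 44 probe sets had differences from -1.07 to 1.59 with a median of 0.42. Of the 44, 39 (88.6%) were above 0, against 54.7% of all probe sets. DGCR8, the double-stranded RNA-binding protein that holds the hairpin, read 5.42 and 5.76 without Doxy and 5.61 and 6.11 with Doxy. The groups overlapped, and its difference was 0.27 (95% confidence interval -0.25 to 0.80, adjusted p = 0.555). The DGCR8 difference was 0.099 and 0.45 with No Doxy replicates 1 and 2 left out in turn, and 0.52 and 0.025 for Doxy replicates 1 and 2.

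The Microprocessor is known to cut hairpins in the DGCR8 transcript itself, and the mature miRNAs annotated within the DGCR8 gene on chromosome 22 are shown here for that reason. Their sequences come from RefSeq on GRCh38.p14, plus strand, written 5′ to 3′, with the seed (bases 2 to 8) in capitals.
hsa-miR-3618: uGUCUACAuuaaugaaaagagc
hsa-miR-1306-5p: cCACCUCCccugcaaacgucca
hsa-miR-1306-3p: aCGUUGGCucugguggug
The 3 seeds are all different. The array measures the host transcript and not these miRNAs, and no miRNA level was analysed here. Over the 22 probe sets of DGCR8 the differences ran from -1.04 to 1.14 with a median of 0.19. Of the 22, 17 (77.3%) were above 0, against 54.7% of all probe sets. The lowest DGCR8 probe set, 3937218, read 5.90 and 5.93 without Doxy and 5.30 and 4.44 with Doxy. The mean difference over the other DGCR8 probe sets was 0.33. Its departure from the others did not pass diffSplice's test of single probe sets (FDR 0.552).

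XPO5, the export receptor for miRNA hairpins, had the smallest difference of the 9 genes. It read 7.37 and 7.38 without Doxy and 7.18 and 7.69 with Doxy, so that the No Doxy values lay between the Doxy values. The difference was 0.06 (95% confidence interval -0.43 to 0.55, adjusted p = 0.908), and it was -0.10 once the arrays were centred and -0.07 once they were quantile normalized. The 46 probe sets of XPO5 ran from -1.09 to 2.56 with a median of -0.03. Of the 46, 21 (45.7%) were above 0, against 54.7% of all probe sets. In 7 of the 46 (15.2%) both Doxy arrays lay above both No Doxy arrays, against 26.4% of all probe sets. In 7 both lay below, against 19.0% of all.

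DICER1, the RNase III enzyme that makes the second cut, read 7.08 and 7.09 in the No Doxy arrays and 7.56 and 7.71 in the Doxy arrays. The No Doxy values were nearly equal, and both Doxy values lay clearly above them. The difference was 0.55, or 1.46-fold (95% confidence interval 0.15 to 0.95), and did not pass the test after adjustment (limma adjusted p = 0.103). It was 0.38 with centred arrays (adjusted p = 0.267, in a range of 0.0830 to 0.431 over the alternatives tried). Of its 39 probe sets 36 (92.3%) had a difference above 0, against 54.7% of all probe sets. The median difference over the 39 was 0.53. In 28 of the 39 (71.8%) both Doxy arrays lay above both No Doxy arrays, against 26.4% of all probe sets. In 1 both lay below, against 19.0% of all.

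TARBP2 and PRKRA encode related double-stranded RNA-binding partners of DICER1. TARBP2 read 4.83 and 5.19 without Doxy and 5.14 and 5.36 with Doxy, a difference of 0.24 (95% confidence interval -0.22 to 0.70, adjusted p = 0.555). It was 0.058 and 0.42 with No Doxy replicates 1 and 2 left out in turn, and 0.35 and 0.13 for Doxy replicates 1 and 2. PRKRA, also known as the protein activator of the kinase PKR, read 7.55 and 7.29 without Doxy and 7.35 and 7.75 with Doxy. Its difference was 0.13 (95% confidence interval -0.35 to 0.61, adjusted p = 0.784), or -0.03 with centred arrays and 0.02 with quantile normalized arrays. The groups overlapped for both partners. Of the 18 probe sets of TARBP2 9 were above 0, and of the 13 of PRKRA 7 were, where 54.7% of all probe sets were.

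AGO1 had the largest difference among the 9 genes. Its values were 5.84 and 5.70 without Doxy and 6.36 and 6.77 with Doxy, with no overlap between the groups. The means were 5.77 ± 0.10 (SD, n = 2 arrays) and 6.57 ± 0.29 (SD, n = 2 arrays). The difference was 0.80, or 1.74-fold (standard error 0.20, 95% confidence interval 0.33 to 1.26), and its limma adjusted p of 0.0536 lay just above the threshold. With quantile normalized arrays the difference was 0.65 and passed the test (adjusted p = 0.0491), and with centred arrays it was 0.64 and did not (adjusted p = 0.0531). The adjusted p of AGO1 ran from 0.0105 to 0.383 over the alternatives tried.

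AGO2, the Argonaute with slicing activity, read 6.07 and 6.14 in the No Doxy arrays and 6.64 and 6.92 in the Doxy arrays. Both Doxy values lay above both No Doxy values, and each group's values were close together. The difference was 0.68, or 1.60-fold (standard error 0.18, 95% confidence interval 0.25 to 1.10, limma adjusted p = 0.0667). With the median signal of its probe sets in each array in place of their mean, the AGO2 difference was 0.26 (adjusted p = 0.617). That was the highest adjusted p in a range of 0.0285 to 0.617 over the alternatives tried. The median of the AGO2 probe set differences was 0.63. AGO3 read 6.63 and 6.79 without Doxy and 6.85 and 7.31 with Doxy, a difference of 0.37 (95% confidence interval -0.11 to 0.86, adjusted p = 0.347). Its lower Doxy value stood just above its higher No Doxy value, and the AGO3 difference was 0.14 without Doxy replicate 2 and 0.60 without Doxy replicate 1.

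**Figure D2:**
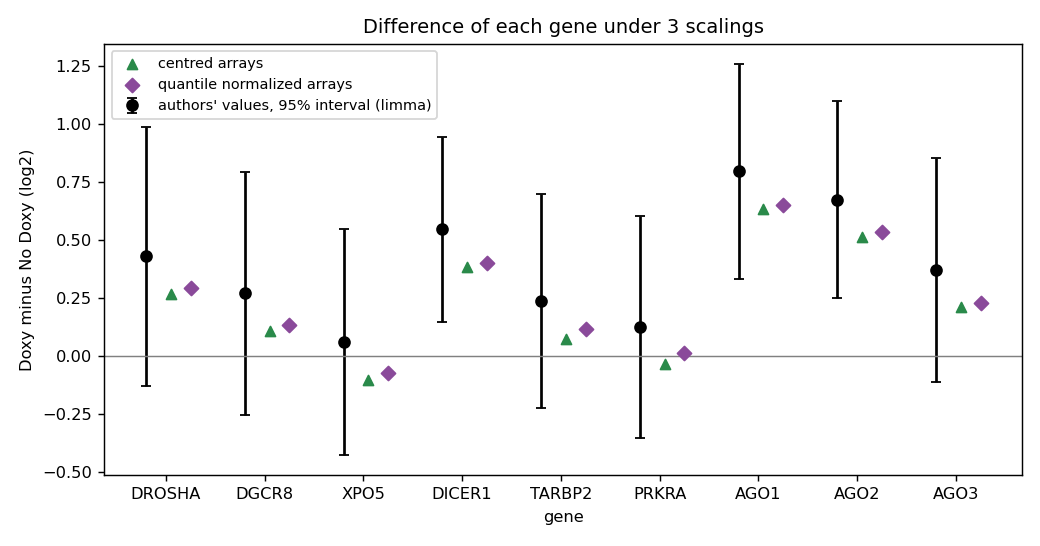
Doxy minus No Doxy difference of each gene (log2) for the values as deposited (black circles, with the 95% confidence interval of the limma fit), centred arrays (triangles) and quantile normalized arrays (diamonds). The intervals of AGO1, AGO2 and DICER1 as deposited lie above 0, from 0.33, 0.25 and 0.15 upward, XPO5 changes sign under both other scalings and PRKRA under centring.

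Single probe sets of the 9 genes were then set against those of all genes. No probe set of any gene passed limma's adjusted test (0.00% of 261273, of which 21902 higher and 11344 lower had an unadjusted p under 0.05), so the counts here describe direction only. With a trended and robust prior limma called 2208 probe sets of all genes and 0 of the 267. Over all probe sets the direction depended on the scaling. On centred arrays 15189 were higher and 17208 lower at limma's unadjusted p under 0.05, and on quantile normalized arrays 17397 and 15880. The counts that follow are for the values as deposited. Of the 267 probe sets 206 had a difference above 0 (77.2%), against 54.7% of all probe sets. Both Doxy arrays lay above both No Doxy arrays in 120 of the 267 (44.9%, against 26.4% of all), and below them in 18 (19.0% of all). An unadjusted p under 0.05 was found for 31 in the higher direction (11.6%, against 8.38% of all) and for 5 in the lower direction (4.34% of all). The probe sets of any gene share its RNA and the arrays, and so are not independent.

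The probe sets of AGO1 were the most uniform. With the values as deposited all 27 had a difference above 0, from 0.04 to 1.64. The same held for 73 of the 2179 genes with at least 27 probe sets (3.35%). Probe sets 2330122, 2330079 and 2330094 had 0.04, 0.04 and 0.14, less than the 0.16 by which centring lowers every difference. In 20 of the 27 both Doxy arrays lay above both No Doxy arrays (26.4% of all probe sets), and in none did both lie below (19.0%). The highest of them, 2330115, read 5.23 and 5.45 without Doxy and 6.82 and 7.13 with Doxy. Another, 2330120, read 4.84 and 4.95 without Doxy and 6.12 and 6.06 with Doxy, a difference of 1.19. Both were well separated between the groups, yet neither passed the adjusted test across all probe sets (adjusted p = 0.254 and 0.280 from limma).

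The 29 probe sets of AGO2 spread more widely, from -0.63 to 2.20, and 26 were above 0. In 20 of the 29 both Doxy arrays lay above both No Doxy arrays (26.4% of all probe sets) and in 1 both lay below (19.0%). Probe set 3156228 stood out in AGO2, with 3.80 and 3.13 without Doxy and 5.79 and 5.53 with Doxy. Its difference of 2.20 compares with a mean of 0.62 over the other AGO2 probe sets, a departure that did not pass the test (FDR 0.0967). Of the 29 probe sets of AGO3 24 were above 0, and in 15 both Doxy arrays lay above both No Doxy arrays.

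**Figure D3:**
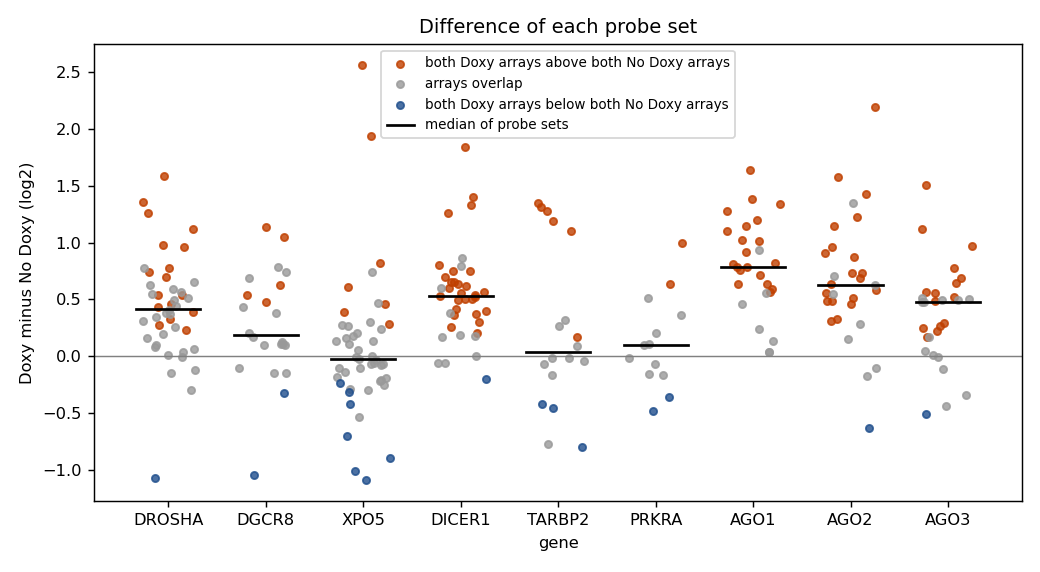
Doxy minus No Doxy difference (log2) of each of the 267 probe sets, in a column for each gene, with the gene's median as a black bar and colours for whether the groups overlap. With the values as deposited all 27 AGO1 points lie above 0. The points of XPO5 spread from -1.09 to 2.56 around a median of -0.03.

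A gene's exon usage was tested as a difference among its probe sets in their response to Doxy. By limma's diffSplice F test none of the 9 genes was called, where 2.48% of all genes were. XPO5 was the only one with an unadjusted p under 0.05, which 13.5% of all genes had. The lowest adjusted p was that of XPO5 (0.278), followed by AGO2 (0.402), and those of the other 7 genes ran from 0.619 to 1. DiffSplice's Simes test, which looks for single deviating probe sets, called XPO5 alone (adjusted p = 0.00360, with 5.38% of all genes called), as did an analysis of variance with terms for condition, array, probe set and their interaction (adjusted p = 0.0289, with 6.01% of all genes called). The Simes call was lost when No Doxy replicate 2 was left out, and also with Doxy replicate 2 left out. Over all genes the Simes calls rose without No Doxy replicate 2 and fell without Doxy replicate 2. The analysis of variance call was lost without No Doxy replicate 2 (adjusted p = 0.0991), Doxy replicate 1 (adjusted p = 1) or Doxy replicate 2 (adjusted p = 1.00). Over all genes its calls fell as well without a Doxy array, from 999 to 66 and 52.

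Probe set 2954739 departed the most from the rest of XPO5. It read 4.46 and 1.55 without Doxy and 4.76 and 6.38 with Doxy, a difference of 2.56 against a mean of 0.01 over the other XPO5 probe sets (FDR 0.00125). The FDR of diffSplice uses a spread pooled over all probe sets of the gene, not that of 2954739 alone. Limma's test of 2954739 itself gave an unadjusted p of 0.0554 (adjusted p = 0.404). The No Doxy arrays were far apart there, and without No Doxy replicate 2, the low one, the difference was 1.11. It was 3.38 without Doxy replicate 1 and 1.75 without Doxy replicate 2. Probe set 2954701 of XPO5 had tighter values, 4.65 and 4.18 without Doxy and 6.62 and 6.08 with Doxy, a difference of 1.94 whose departure from the others passed as well (FDR 0.0417). On the lower side, 2954683 read 8.68 and 8.70 without Doxy and 7.60 and 7.61 with Doxy, a difference of -1.09. That probe set had close values within each group, but its departure from the rest of XPO5 did not pass (FDR 0.483). Where these probe sets lie within XPO5 was not analysed here.

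In DICER1 probe set 3577891 read 5.34 and 2.93 without Doxy and 6.13 and 5.82 with Doxy. Its difference of 1.84 compares with 0.51 over the other DICER1 probe sets (FDR 0.0721), and it was 0.64 without No Doxy replicate 2. That FDR too uses a spread pooled over the gene, and limma's test of 3577891 itself gave an adjusted p of 0.420. The lowest difference in DROSHA, -1.07 at 2851971, came from a probe set among the dimmest 25% on the arrays, which read 2.49 and 2.29 without Doxy and 1.34 and 1.29 with Doxy. Of the 267 probe sets, 8 were that dim.

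**Figure D4:**
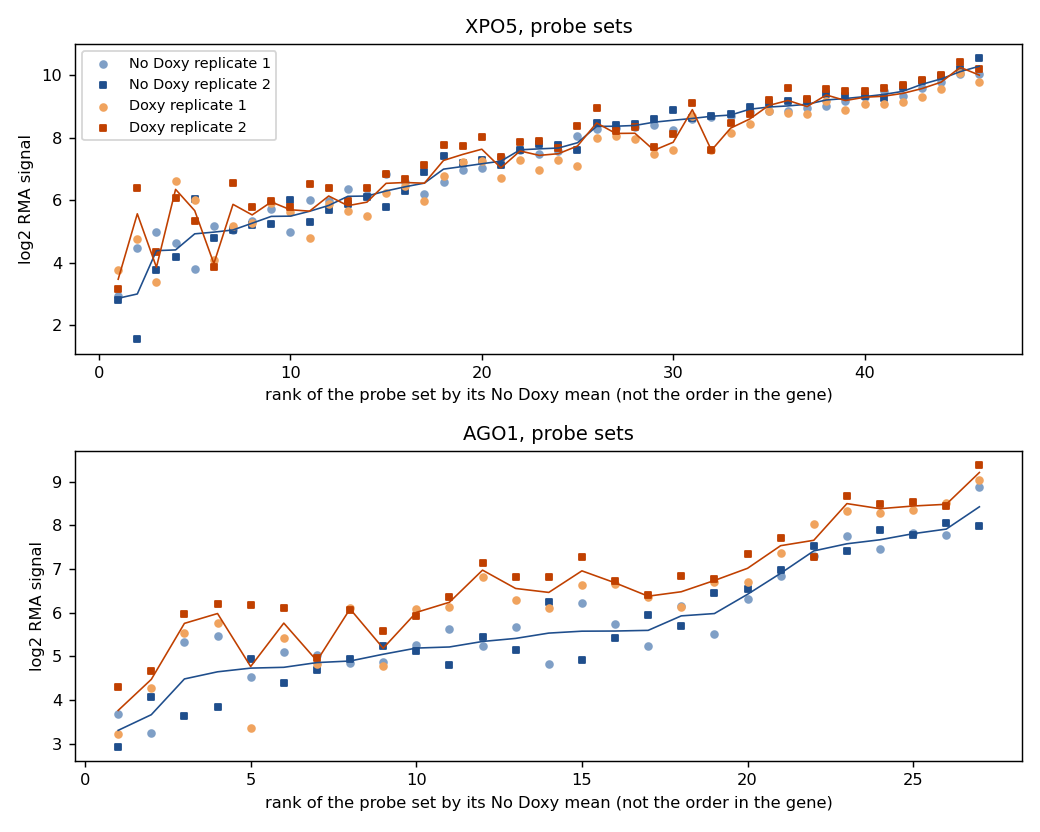
Signal (log2) of each probe set of XPO5 and AGO1 in each of the 4 arrays, ranked by its No Doxy mean, which is not the order along the gene, with a line through the means of each group. The lines cross repeatedly in XPO5, with Doxy up to 2.56 above No Doxy at the left. In AGO1, with the values as deposited, the Doxy line lies above the No Doxy line by 0.04 to 1.64 at all 27 probe sets.

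Promoters are shown for AGO1 and DICER1, which had the largest and the third largest differences, and for XPO5, which had the smallest. Each is the stretch of 250 bases before the annotated start in RefSeq on GRCh38.p14, written 5′ to 3′ on the gene's strand, AGO1 at chr1:35882959-35883208 (plus), DICER1 at chr14:95158011-95158260 (minus, the most upstream of 5 annotated starts) and XPO5 at chr6:43576039-43576288 (minus). Capitals mark matches on either strand to GGGCGG (the GC box), CCAAT and TATAAA.
AGO1: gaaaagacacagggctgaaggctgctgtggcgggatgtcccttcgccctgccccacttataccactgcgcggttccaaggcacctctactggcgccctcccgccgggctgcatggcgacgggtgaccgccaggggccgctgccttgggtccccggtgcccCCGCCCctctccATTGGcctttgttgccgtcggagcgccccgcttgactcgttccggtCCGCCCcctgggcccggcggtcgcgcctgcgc
DICER1: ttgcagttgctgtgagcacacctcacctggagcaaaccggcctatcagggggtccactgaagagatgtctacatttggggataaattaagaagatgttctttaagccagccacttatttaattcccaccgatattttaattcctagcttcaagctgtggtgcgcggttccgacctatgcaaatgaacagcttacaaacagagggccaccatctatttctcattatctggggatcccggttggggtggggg
XPO5: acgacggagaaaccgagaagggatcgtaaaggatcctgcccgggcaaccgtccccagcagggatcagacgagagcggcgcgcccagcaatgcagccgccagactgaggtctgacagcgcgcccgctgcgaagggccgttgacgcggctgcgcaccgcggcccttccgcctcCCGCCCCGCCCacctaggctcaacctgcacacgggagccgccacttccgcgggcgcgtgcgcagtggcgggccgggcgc
AGO1 holds 2 GC boxes and 1 CCAAT match, XPO5 holds 2 GC boxes that share bases, and DICER1 holds none of the 3 motifs in this window. Of the 10 genes of the set, 9 (AGO4 among them, AGO2 not) have an entry in the promoter table, and of these 7 hold a GC box, 5 a CCAAT match and 0 a TATAAA match. These counts use the most upstream annotated start of each gene. Over all 35116 promoter windows of that length, which include every annotated start of a gene, the shares were 42.6%, 32.0% and 10.7%. The counts and the shares are thus not over like units. A match is a run of letters, and binding was not measured.

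The wider miRNA pathway was described by 6 lists of 77 genes, of which 74 were measured. The lists were written from general knowledge but with earlier results of these data known, so their counts are descriptive. Among the 74, 9 rose with Doxy (12.2%, against 5.66% of all genes). None was called lower with the values as deposited, against 6 with centred arrays and 3 with quantile normalized arrays. At an unadjusted p under 0.05, 23 of the 74 were higher (16.5% of all genes) and 6 lower (6.68% of all genes). The median difference was 0.20. The count of 9 depends on the arrays: it was 0 with either of the No Doxy arrays left out, 6 when Doxy replicate 1 was and 1 when Doxy replicate 2 was. Over all genes the calls fell too, from 940 higher to 0 with either of the No Doxy arrays left out, 573 for Doxy replicate 1 and 69 for Doxy replicate 2.

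Among 9 Microprocessor cofactors 1 was called higher (11.1%, against 5.66% of all genes). This was SRRT, also known as ARS2, which links the nuclear cap-binding complex to miRNA processing. SRRT rose from 6.32 and 6.39 to 8.01 and 8.38 with Doxy. That difference of 1.84 (adjusted p = 0.00642) was the largest in the 6 lists and exceeded that of AGO1, though that comparison was not tested. SRRT lost its call in 3 of 16 alternatives. NCBP1, the large subunit of the cap-binding complex, had a difference of -0.71 (adjusted p = 0.0540), and HNRNPA1, which binds certain miRNA hairpins, had -0.55 (adjusted p = 0.116).

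LIN28B and TUT7 rose among 10 genes of LIN28, terminal uridylation and precursor decay (20%, against 5.66% of all genes). LIN28B, which binds let-7 precursors and blocks their processing, read 7.37 and 7.49 without Doxy and 8.80 and 9.13 with Doxy, a difference of 1.53 (adjusted p = 0.00956). TUT7, a uridylyl transferase that tails such precursors, differed by 1.17 (adjusted p = 0.0179). LIN28B lost its call in 4 of 16 alternatives and TUT7 in 5. LIN28A, the paralog of LIN28B, had a difference of -0.04 (adjusted p = 0.939). It read only 3.80 and 3.31 without Doxy and 3.54 and 3.47 with Doxy, near the 3.20 under which the dimmest 25% of probe sets lay. DIS3L2, the exonuclease that degrades tailed precursors, had a difference of -0.04 (adjusted p = 0.940).

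Of 12 chaperones that help load Argonaute proteins 3 rose. These were HSP90AA1, an inducible HSP90, by 1.25 (adjusted p = 0.0188), HSPA8, the constitutive HSP70, by 1.07 (adjusted p = 0.0303), and the co-chaperone DNAJB1 by 1.36 (adjusted p = 0.0124). HSP90AB1, the constitutive HSP90, had a difference of 0.19 (adjusted p = 0.609) and the co-chaperone FKBP4 -0.02 (adjusted p = 0.978). The count of 3 in 12 compares with 5.66% of all genes. The calls of HSPA8 (adjusted p = 0.104) and HSP90AA1 (adjusted p = 0.0690) were lost with the median of probe sets, and that of HSPA8 also with Tukey's median polish (adjusted p = 0.0521). Of 16 alternatives, the call was lost in 5 for HSP90AA1, in 6 for HSPA8 and in 4 for DNAJB1. These chaperones serve many other clients.

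Among 15 GW182 proteins and RISC partners FXR1 alone, an RNA-binding relative of FMR1, was called higher, by 0.93 (adjusted p = 0.0225), a share of 6.67% against 5.66% of all genes. FXR1 lost its call in 7 of 16 alternatives, such as the median of probe sets (adjusted p = 0.117) and each array left out. The GW182 genes themselves had differences of 0.29 for TNRC6A, 0.53 for TNRC6B and -0.24 for TNRC6C, with adjusted p from 0.126 to 0.560. Of 24 deadenylation and decapping genes 2 (8.33%) were called higher, the decapping enzyme DCP2 by 0.89 (adjusted p = 0.0266) and the deadenylase subunit PAN2 by 0.73 (adjusted p = 0.0442). PAN2 lost its call in 13 of 16 alternatives, centred arrays (adjusted p = 0.0900) and quantile normalized arrays (adjusted p = 0.0619) among them, and DCP2 in 8 of 16, with an adjusted p of 0.215 with the median of probe sets. The 4 genes of the PIWI clade, the germline relatives of the Argonautes, had values between 2.40 and 3.02 in every array, and none was called.

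**Figure D5:**
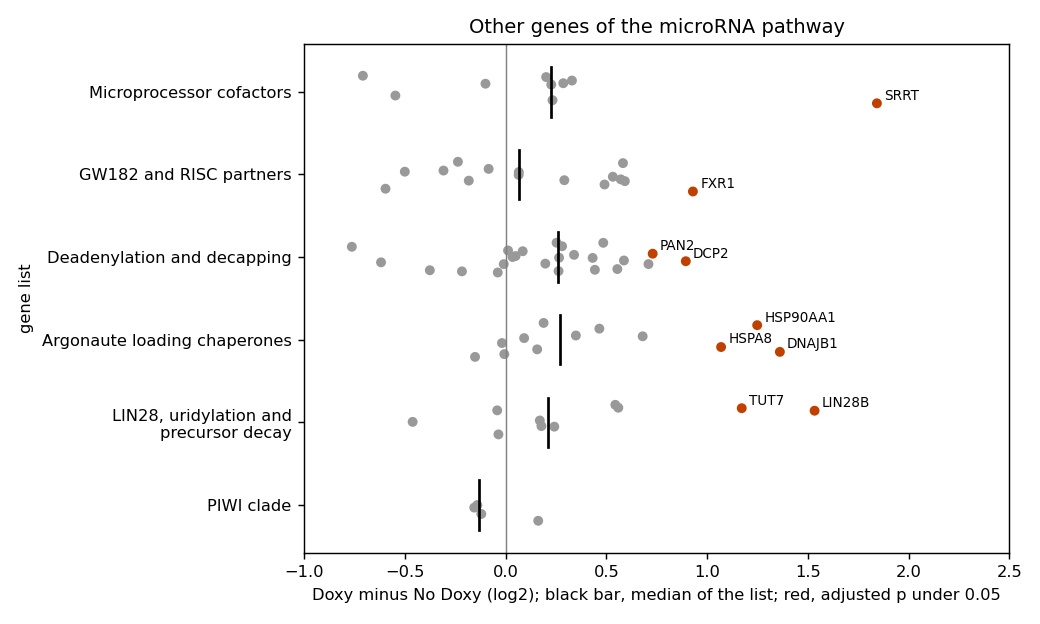
Doxy minus No Doxy difference (log2) of each of the 74 measured genes in the 6 lists, in a row for each list, with the list's median as a black bar and genes with an adjusted p under 0.05 in red. The 9 red points run from 0.73 for PAN2 to 1.84 for SRRT, and none lies below 0.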

How the data were processed

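RNA of A2780/SRSF3si2 cells with and without Doxy was read on 4 exon arrays, grouped by their labels. The authors deposited log2 values of core exon probe sets, made by RMA in Expression Console. The sources used here give neither the version and options of that program nor a genome build. Partek 6.6 is named in the submitters' processing notes. Column medians ran from 5.04 to 5.38, so centred and quantile normalized arrays were tried. The precision is limited by the number of arrays, and an exact permutation of 2 against 2 could not give a two-sided p under 0.333.

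Of the probe sets, 261273 list 1 symbol, 9155 several and 16901 none, and only the first were used. The RefSeq gene table held 14546 of the 16941 symbols as current names and updated 2300, and 95 stayed as listed. A gene value is the mean of at least 2 probe sets. Gene values were tested with limma 3.58.1 under R 4.3.3 (2 residual degrees of freedom, a prior of 5.95 with variance 0.0382) and exon usage by its diffSplice, with Benjamini-Hochberg adjustment over all genes. The tests were first run on simulated data as a check of the code. For exon usage the simulated probe sets of a gene shared a common spread, so unequal spreads were not covered. Figures were drawn with matplotlib 3.10.9.

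The genes, lists and tests were chosen with earlier results of these data known. Named genes are the members, their most deviating probe sets, all called genes of the lists and, picked after their values were seen, a few list genes and probe sets that were not called. Alternatives were the median of probe sets, Tukey's median polish, no dim probe sets, and at least 1 or 5 probe sets. The median of probe sets was taken over their signals in each array, not over their differences. Both scalings, a replicate block, a prior that was trended and robust, and each array left out were tried too. An ordinary t-test with equal variances was tried with the same adjustment, and limma's unadjusted p under 0.05 with the study's fold threshold of 2. The Simes and analysis of variance tests were alternatives for exon usage. Added after seeing the data were the shared AGO3 and AGO4 probe sets and the XPO5 tests without each array. A lone array left in a group was taken to vary as the other group's arrays did.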

Additional observations from a re-analysis of the deposited data

Results flagged for a closer look

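The probe sets that list both EIF2C3 and EIF2C4 (AGO3 and AGO4) were left out of the gene values, and their signal differed between the groups. The mean of these 29 probe sets was 5.40 and 5.48 in the No Doxy arrays and 6.27 and 6.39 in the Doxy arrays, a log2 difference of 0.89. Both Doxy arrays lay above both No Doxy arrays, and the 4 values were close within each group. Of the 29 probe sets 27 had a difference above 0, and the differences ran from -0.28 to 2.34 with a median of 0.98. In 20 of the 29 (69.0%) both Doxy arrays lay above both No Doxy arrays, and in 0 both lay below. Among probe sets that list 1 symbol, 26.4% lay above, 19.0% lay below and 54.7% had a difference above 0. The 29 probe sets read by AGO3 alone had a mean difference of 0.37. Whether the shared probe sets read AGO3, AGO4 or both cannot be told from the annotation. With them added to AGO3, its difference was 0.63 (limma adjusted p = 0.0863).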

How the results depend on the processing

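DROSHA, DGCR8, DICER1, TARBP2, AGO1, AGO2 and AGO3 kept a difference above 0 under all alternatives tried. The number of the 9 genes called higher, 0 as reported, was 1 with at least 5 probe sets (1160 higher and 322 lower over all genes), 1 with quantile normalized arrays (AGO1 in both) and 2 with a replicate block, AGO1 (adjusted p = 0.0105) and AGO2 (adjusted p = 0.0285). Equally numbered arrays deviated together with r = 0.127 over 2 pairs, the labels do not describe pairs, and the block raised the calls over all genes from 940 higher and 282 lower to 1727 and 636. It changed no other call of the 9 genes. PRKRA turned to -0.12 with the median of probe sets and -0.034 with centred arrays, and ran from -0.071 to 0.33 with each array left out. XPO5 turned to -0.10 with the median of probe sets, -0.045 with Tukey's median polish, -0.10 with centred arrays and -0.070 with quantile normalized arrays, and ran from -0.19 to 0.31 with each array left out. SRSF3 was -0.67 with centred arrays and -0.64 with quantile normalized arrays, both passing the test, and -0.21 (adjusted p = 0.710) with the median of its probe sets. The number of the 9 genes called in exon usage was 1 by the Simes test, 1 by the analysis of variance and 0 to 3 with each array left out. The 3, without No Doxy replicate 1, were DICER1, AGO2 and TARBP2, where 24.1% of all genes were called. Of the pathway genes, 3 were called higher with the median of probe sets and 0 with the t-test with equal variances (14 at an unadjusted p under 0.05). Called lower were 1 with the median of probe sets, 2 with at least 5 probe sets, 6 with centred arrays, 3 with quantile normalized arrays and 3 with the replicate block. Over all genes, 916 were called higher and 952 lower with centred arrays, 895 and 602 with quantile normalized arrays, 163 and 76 with the median of probe sets and 550 and 218 with Tukey's median polish, and 586 and 199 without the dimmest 25% of probe sets. The t-test with equal variances called none after adjustment (2328 at an unadjusted p under 0.05). Limma's unadjusted p under 0.05 with a fold over 2 gave 502 and 176. With No Doxy replicate 1 or 2 left out none was called by limma (3085 and 2575 at an unadjusted p under 0.05), with Doxy replicate 1 left out 573 and 96, and with Doxy replicate 2 left out 69 and 82. Over all genes exon usage calls ran from 20 without Doxy replicate 2 to 4009 without No Doxy replicate 1, with 412 as reported, 893 by the Simes test, 999 by the analysis of variance and 206 with the replicate block. The cause of these shifts was not tested. The number of arrays, 2 in a group, limits the precision of every difference.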

Other observations

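Among the 74 genes of the pathway lists, diffSplice called exon usage in 4 (2.48% of all genes were called). CNOT1 (65 probe sets, adjusted p = 0.00259), CNOT2 (26 probe sets, adjusted p = 0.000729) and CNOT7 (14 probe sets, adjusted p = 0.0340) encode the scaffold, a structural subunit and a deadenylase of the CCR4-NOT complex, to which GW182 proteins bind. XRN1 (53 probe sets, adjusted p = 0.0376) encodes the exonuclease that degrades decapped mRNA. Their gene values differed by 0.01, -0.04, 0.28 and 0.43, and none passed limma's test of expression. The analysis of variance called 11 of the 74 (6.01% of all genes), FXR1 (adjusted p = 0.00166) and DCP2 (adjusted p = 0.0185) among them.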
